A study of Mus musculus with 16 samples.

Results

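Interferon-stimulated genes are the genes that cells switch on when an interferon binds its receptor. The 49 genes described here were given as a list of symbols and matched by symbol to the Ensembl identifiers of the deposited values, and all 49 had a value in each library, out of 15350 genes listed there. They were divided by role into 24 type I effectors, 10 interferon-inducible GTPases (4 guanylate-binding proteins and 6 immunity-related GTPases, or IRGs), 6 nucleic acid sensors with their adaptor, 6 transcription regulators and 3 interferon receptor chains. The tissue was interscapular brown fat of C57BL/6J mice, either wild type (WT) or with a knockout of Ucp1 (KO), the mitochondrial uncoupling protein through which brown fat makes heat. Mice carried a minipump for 3 days that delivered saline or isoproterenol, a beta-adrenergic agonist, at 60 mg per kg per day. The 4 groups of 4 libraries were WT saline, WT isoproterenol, KO saline and KO isoproterenol. The labels give neither the age or sex of the mice, nor the part of Ucp1 that was deleted, nor whether each library came from a separate animal, so each p-value reflects the variation among the libraries at hand, some of which may be technical.

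Type I interferons signal through the receptor chains IFNAR1 and IFNAR2 to the kinases JAK1 and TYK2, which activate the factor ISGF3, of which STAT2 and IRF9 are parts. ISGF3 binds the interferon-stimulated response element (ISRE) in the promoters of its targets. Interferon gamma signals through IFNGR1 and acts on gamma-activated sites (GAS) in promoters, and many GTPases of the list respond to it. In brown fat the cells that can carry these transcripts include brown adipocytes, endothelial cells and the resident or recruited immune cells.

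Levels are given in CPM, which are read counts per 1000000 of an effective library size. By the authors' scaling that size was 0.854 to 1.25 times the read total. Fold changes are given as differences of mean log2 CPM with their standard error (SE). A gene was called where the adjusted p of limma, a linear model fitted over all 15350 genes, was under 0.05. Libraries held 9004515 to 20986735 reads, so that 3 reads, taken as the floor, were worth 0.143 to 0.345 CPM. Ucp1 read 2298, 3449, 3220 and 3339 CPM in WT saline, 8905, 11662, 17655 and 18458 in WT isoproterenol, 1118, 588, 1156 and 410 in KO saline and 19.0, 268, 848 and 2129 in KO isoproterenol. The KO libraries lay below the WT libraries of the same treatment. Within KO isoproterenol, replicate 1 was unlike the rest, and the results below are also given without it where that matters. Markers of brown adipocytes were present in each library, at a summed level of 4436 to 8106 CPM over 10 genes in the other 3 groups and of 147 to 6257 CPM in KO isoproterenol. Skeletal muscle markers, of a tissue that lies next to this depot, ranged from 22.3 to 10805 CPM summed over 15 genes, with wide ranges in each group.

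Isoproterenol raised most of the interferon-stimulated genes in KO brown fat. Against KO saline, 42 of 49 members were called higher and 0 lower, where 23.8% of all genes were called higher and 24.8% lower. The median change of the members was 1.71 on the log2 scale, a fold of 3.27, against -0.00 over all genes. In 35 members each KO isoproterenol library lay above each KO saline library, as it did in 18.1% of all genes. The counts differed by role: 22 of 24 effectors were called higher (median 2.38), 8 of 10 GTPases (median 1.0), 6 of 6 sensors (median 1.81), 6 of 6 regulators (median 1.75) and 0 of 3 receptor chains (median 0.30). Without KO isoproterenol replicate 1 the count was 39 higher and 1 lower, the latter Ifnar2, and the median was 1.37.

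**Figure D1:**
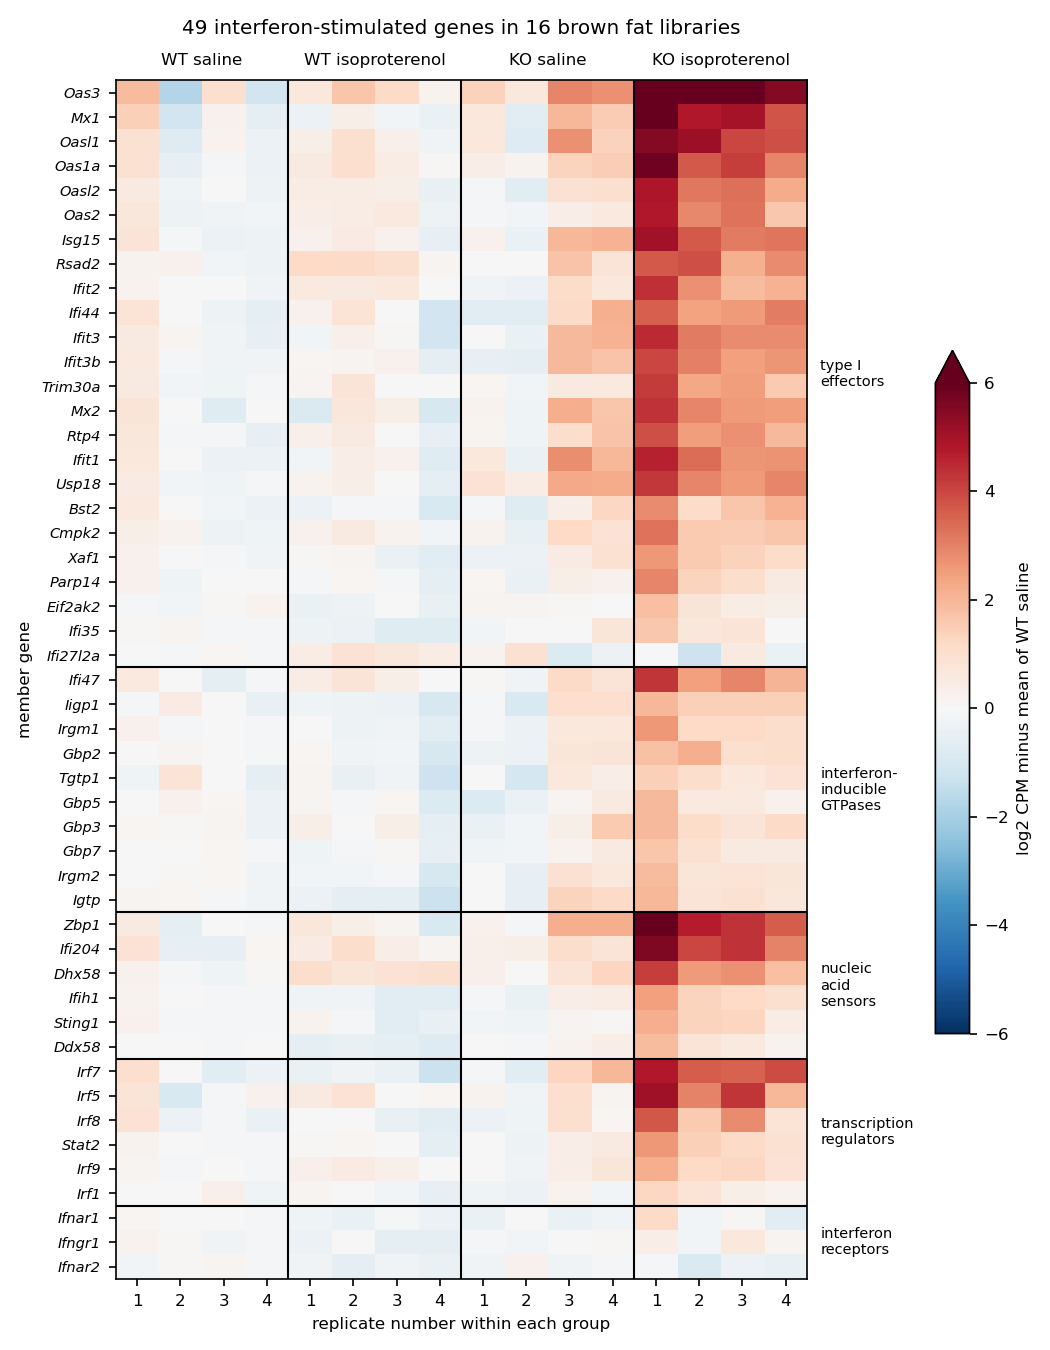
Colour map of log2 CPM minus the mean of the WT saline libraries, with the 49 members in rows by role and the 16 libraries in columns by group and replicate; values above 6 are drawn in the darkest red. The 4 KO isoproterenol columns are red for nearly all members outside the receptor chains, and KO saline replicates 3 and 4 are redder than replicates 1 and 2.

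Many of the effectors are proteins that block viral RNA, protein synthesis or budding. Among them the oligoadenylate synthases, which make the second messenger that activates RNase L, rose far. Oas3 read 1.17, 0.708, 3.52 and 3.04 CPM in KO saline replicates 1 to 4 and 192, 37.8, 45.1 and 20.7 CPM in KO isoproterenol. The groups did not overlap, and KO isoproterenol replicate 1 was highest by a wide margin. The log2 change of Oas3 was 4.89 (SE 0.81, limma adjusted p = 0.000217), a fold of 29.6, and without that library it was 4.25. Oasl1, a family member that lacks synthase activity, read 4.43, 1.71, 19.4 and 7.52 CPM in KO saline and 133, 101, 45.8 and 42.3 CPM in KO isoproterenol. Its change was 3.63 (SE 0.60, limma adjusted p = 0.000218), or 3.04 without KO saline replicate 2. The groups did not overlap, although KO saline replicate 3 stood well above the other saline libraries. Oas1a, Oas2 and Oasl2 were called higher as well, with log2 changes of 3.30, 2.96 and 3.11. Oas1a shares 47.6% of its stretches of 75 bases with Oas1g, so reads of the pair may have been divided between them and its value is uncertain.

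Mx1 encodes a dynamin-like GTPase that restricts influenza virus, in a truncated and inactive form in C57BL/6 mice. It read 2.30, 0.958, 5.91 and 4.31 CPM in KO saline and 232, 42.4, 47.3 and 20.3 CPM in KO isoproterenol. All treated libraries lay above all saline libraries, and the log2 change was 4.34 (SE 0.70, limma adjusted p = 0.000185), a fold of 20.2. Without KO isoproterenol replicate 1 the change of Mx1 was 3.65. Its neighbour Mx2 changed by 2.13.

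Isg15, a ubiquitin-like modifier, read 7.12, 4.54, 23.6 and 24.9 CPM in KO saline and 194, 75.2, 50.3 and 54.2 CPM in KO isoproterenol. KO saline replicates 3 and 4 lay between the other saline libraries and the treated ones, and the change of Isg15 was 2.76 (limma adjusted p = 0.000679). Usp18, the protease that removes ISG15 and damps receptor signalling, rose by 1.73. The IFIT genes, whose products bind foreign RNA, rose by 2.06 (Ifit1), 2.48 (Ifit2), 2.41 (Ifit3) and 2.40 (Ifit3b). Ifit3 and Ifit3b share 41.1% and 35.7% of their 75-base stretches with each other and cannot be told apart with confidence. Rsad2 (viperin), which makes a chain-terminating nucleotide, rose by 2.51 and its neighbour Cmpk2, a mitochondrial nucleotide kinase, by 1.55.

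The other effectors called higher were Ifi44 (2.41), Trim30a (2.37), Rtp4 (2.10), Bst2 or tetherin (1.71), Xaf1 (1.5), the ADP-ribosyltransferase Parp14 (1.38) and Eif2ak2 or PKR, the kinase that stops translation (0.74). Rtp4 shares 10.5% of its 75-base stretches with other genes. Ifi35 and Ifi27l2a were the 2 effectors not called. Ifi35 read 19.9, 22.4, 22.6 and 36.7 CPM in KO saline and 67.6, 35.9, 38.2 and 22.5 CPM in KO isoproterenol, with overlapping groups and a log2 difference of 0.62 (SE 0.26, limma adjusted p = 0.0623). Ifi27l2a had the highest level per kilobase of transcript of all members in each group. It read 426, 688, 209 and 286 CPM in KO saline and 375, 158, 544 and 285 CPM in KO isoproterenol, a log2 difference of -0.23 (SE 0.36, limma adjusted p = 0.615). In KO saline it was lower in replicates 3 and 4 than in replicates 1 and 2, the opposite of most members.

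The interferon-inducible GTPases attack vacuoles that hold bacteria or parasites. Their changes were smaller than those of the effectors in median, and Ifi47 (an IRG) alone among them was above 2. Ifi47 read 6.13, 5.04, 12.7 and 9.82 CPM in KO saline and 113, 32.2, 44.0 and 24 CPM in KO isoproterenol, a log2 change of 2.49 (SE 0.41, limma adjusted p = 0.000204). Iigp1 read 30.3, 17.5, 65.2 and 66.8 CPM in KO saline and 129, 87.9, 87.4 and 88.7 CPM in KO isoproterenol. Here 3 of the 4 treated libraries agreed closely and the spread lay in the saline group, and the change was 1.31 (SE 0.35, limma adjusted p = 0.00629). Irgm1, a regulator of the other IRGs, read 27.5, 23.0, 46.8 and 46.2 CPM in KO saline and 181, 67.7, 67.2 and 62.3 CPM in KO isoproterenol, a change of 1.31 (SE 0.31, limma adjusted p = 0.00276).

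The 4 guanylate-binding proteins were called higher, with log2 changes of 1.26 (Gbp2), 0.97 (Gbp5), 0.89 (Gbp3) and 0.81 (Gbp7). Gbp2 read 40.8, 40.0, 82.9 and 85.9 CPM in KO saline and 170, 226, 96.8 and 103 CPM in KO isoproterenol, so the groups were close but did not overlap. Gbp3 groups did overlap, because KO saline replicate 4 held 101 CPM against 130, 72.9, 59.4 and 75.9 CPM under isoproterenol. Igtp and Irgm2, both regulatory IRGs, were not called. Igtp read 25.0, 17.6, 61.6 and 54.4 CPM in KO saline and 97.4, 42.1, 45.5 and 38.8 CPM in KO isoproterenol, where KO saline replicates 3 and 4 exceeded all treated libraries but replicate 1 (log2 difference 0.57, SE 0.37, limma adjusted p = 0.214). Irgm2 read 36.2, 25.4, 67.2 and 55.2 CPM in KO saline and 132, 59.4, 61.6 and 58.7 CPM in KO isoproterenol (0.76, SE 0.31, limma adjusted p = 0.0526). Irgm2 was called when KO saline replicate 3 (0.98) or 4 (0.88) was left out. Tgtp1 changed by 1.02 but shares 77.2% of its 75-base stretches with Tgtp2, and Gbp7 shares 11.3% with other genes, so both values are uncertain.

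The sensors detect nucleic acids where they should not be. Zbp1, which binds left-handed nucleic acid and can trigger necroptosis, read 2.73, 2.21, 10.3 and 10.3 CPM in KO saline and 189, 61.2, 46.7 and 28.8 CPM in KO isoproterenol. The groups did not overlap, and the change was 3.64 (SE 0.59, limma adjusted p = 0.000190), a fold of 12.5. Ifi204, a DNA-binding protein of the HIN-200 family, read 9.67, 9.95, 16.6 and 13.6 CPM in KO saline and 385, 127, 158 and 62.1 CPM in KO isoproterenol, a change of 3.61 (SE 0.44, limma adjusted p = 1.56e-05). It shares 13.2% of its 75-base stretches with other genes and is uncertain to that extent. Dhx58 (LGP2), a helicase that tunes the RIG-I-like receptors, read 8.11, 6.45, 11.6 and 15.8 CPM in KO saline and 114, 37.7, 43.6 and 23.0 CPM in KO isoproterenol, a change of 2.20 (SE 0.37, limma adjusted p = 0.000243). The RNA helicases Ifih1 (MDA5) and Ddx58 (RIG-I) changed by 1.41 and 0.75, and Sting1, the adaptor of cytosolic DNA sensing, by 1.36.

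Among the regulators Irf7, which drives interferon alpha genes and is itself an ISGF3 target, read 22.3, 15.9, 59.9 and 96.0 CPM in KO saline and 684, 306, 286 and 365 CPM in KO isoproterenol. The lowest treated library lay far above the highest saline library, and the change was 3.35 (SE 0.50, limma adjusted p = 0.000103), a fold of 10.2. Irf5, a factor of myeloid and B cells, read 8.18, 6.12, 14.3 and 7.75 CPM in KO saline and 235, 54.3, 136 and 28.0 CPM in KO isoproterenol, a change of 3.27 (SE 0.53, limma adjusted p = 0.000178). Irf8, which directs myeloid cell identity, read 7.68, 8.29, 18.8 and 10.5 CPM in KO saline and 131, 28.7, 69.8 and 17.5 CPM in KO isoproterenol. Its groups overlapped through KO saline replicate 3 and KO isoproterenol replicate 4, with a change of 2.13 (SE 0.50, limma adjusted p = 0.00274). Irf7 was therefore high in KO isoproterenol replicate 4 while Irf5 and Irf8 were lowest there. Stat2 and Irf9, both parts of ISGF3, changed by 1.37 and 1.14, and Irf1, an early interferon gamma target, by 0.81.

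The receptor chains did not pass the test. In WT saline their levels per kilobase were 54.2 CPM per kb (Ifngr1), 28.2 (Ifnar2) and 15.7 (Ifnar1), above the median of 3.45 for the effectors in the same group. Ifnar1 read 71.2, 93.5, 70.7 and 79.5 CPM in KO saline and 204, 82.3, 97.2 and 57.2 CPM in KO isoproterenol, and its log2 difference of 0.33 (SE 0.26, limma adjusted p = 0.322) turned to -0.022 without KO isoproterenol replicate 1. Ifnar2 read 79.7, 112, 81.8 and 89.7 CPM in KO saline and 87.4, 50.6, 74.0 and 69.2 CPM in KO isoproterenol (-0.38, SE 0.16, limma adjusted p = 0.0575), and without that library it was called lower at -0.50. Ifngr1 read 142, 139, 151 and 160 CPM in KO saline and 199.6, 135, 238 and 172 CPM in KO isoproterenol (0.30, SE 0.17, limma adjusted p = 0.16).

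**Figure D2:**
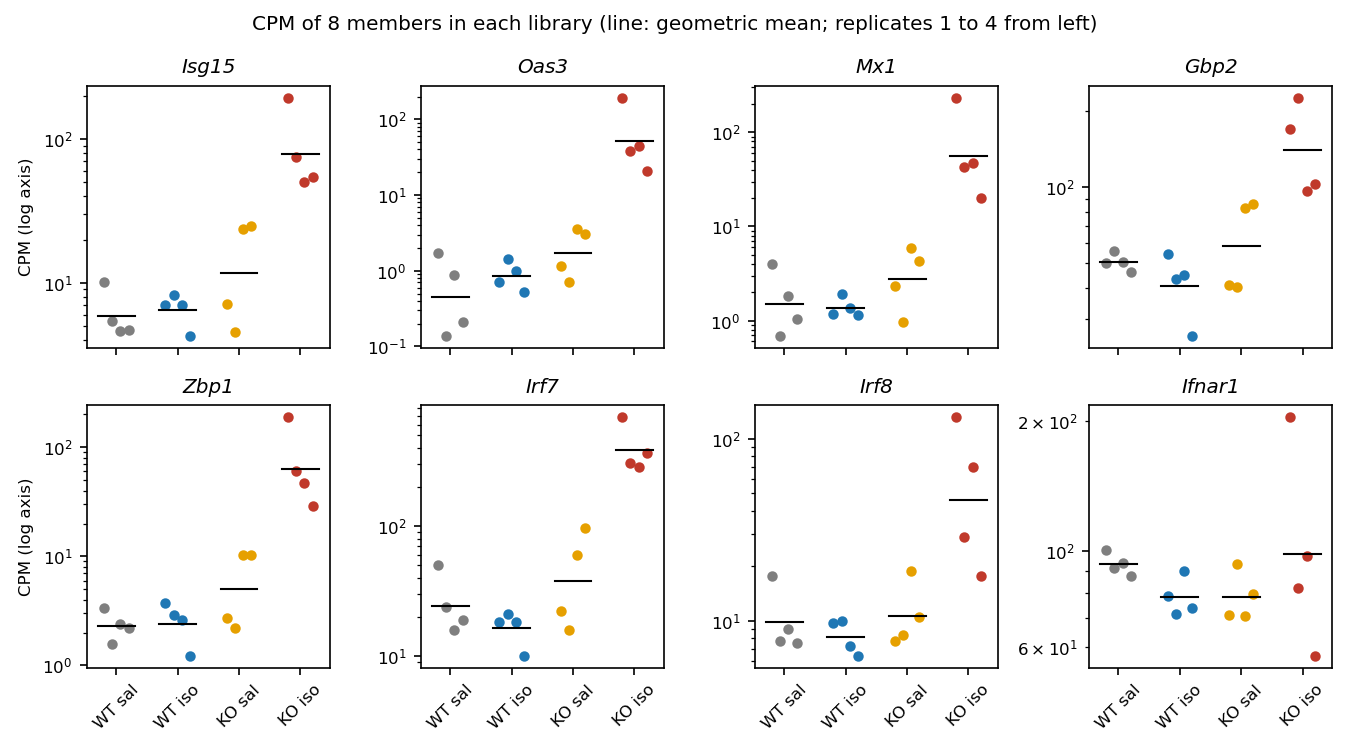
CPM on a log axis of 8 members in each of the 16 libraries (points, replicates 1 to 4 from left to right in each group) with the geometric mean of each group (line). Isg15, Oas3, Mx1, Gbp2, Zbp1 and Irf7 show KO isoproterenol above the other groups with no overlap, Irf8 overlaps through 1 library, and Ifnar1 shows no separation.

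The promoters of the members were searched for the ISRE core (GAAA, any 2 bases, then GAAA again) and for the GAS core TTCNNNGAA. Both were searched without mismatch and on both strands, in windows of 250 bases before to 50 bases after the start from RefSeq (GRCm38.p6). A window was found for 37 of the 49 members, and none for Mx1, Mx2, Oas2, Usp18, Ifi27l2a, Rtp4, Parp14, Iigp1, Dhx58, Zbp1, Ifi204 and Sting1. The ISRE core was in 21 of the 37 (56.8%), against 3.99% of 27025 genes with a window. By role it was in 10 of 17 effectors, 8 of 9 GTPases, 2 of 2 sensors, 1 of 6 regulators and 0 of 3 receptor chains. The GAS core was in 14 of the 37 (37.8%), against 9.55% of all. The cores overlapped in 1 member window. The following stretches of 60 bases, 5′ to 3′ on the strand of the gene and upstream of its start, show the core in capitals for 5 members called higher in KO, with log2 changes from 1.26 (Gbp2) to 4.89 (Oas3), and for comparison a receptor chain without it. They are Oas3 (chr5:120777700-120777759, minus strand), Oas1a (chr5:120907526-120907585, minus strand), Irgm1 (chr11:48871421-48871480, minus strand), Gbp2 (chr3:142620579-142620638, plus strand), Stat2 (chr10:128270251-128270310, plus strand) and Ifnar1 (chr16:91485155-91485214, plus strand).
Oas3: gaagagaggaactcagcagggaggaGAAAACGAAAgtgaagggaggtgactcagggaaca
Oas1a: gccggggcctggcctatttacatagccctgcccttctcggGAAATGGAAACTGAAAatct
Irgm1: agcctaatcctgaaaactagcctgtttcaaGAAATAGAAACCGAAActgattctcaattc
Gbp2: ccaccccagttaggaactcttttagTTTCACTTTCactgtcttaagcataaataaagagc
Stat2: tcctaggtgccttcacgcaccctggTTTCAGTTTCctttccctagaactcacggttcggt
Ifnar1: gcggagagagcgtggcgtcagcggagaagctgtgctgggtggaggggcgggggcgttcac
Oas1a and Irgm1 hold 2 overlapping cores, and in Gbp2 and Stat2 the core lies on the other strand, so it reads as its reverse complement. A match is a description of letters and not of binding. Since the members were listed as interferon-stimulated genes, these shares say nothing about the response in these libraries.

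In KO brown fat macrophage and neutrophil markers rose as the members did. Adipocyte markers fell in median, with wide differences between the KO isoproterenol libraries. Markers of T, B and NK cells were not called higher. In bulk tissue more cells of a type and more RNA per cell cannot be told apart. Over all genes 23.8% were called higher and 24.8% lower in KO isoproterenol against KO saline. A marker count near these shares is no result about its cell type. Of 14 macrophage markers, 14 were called higher in KO isoproterenol against KO saline, and their summed level ran from 1172 to 8744 CPM against 407 to 723 CPM, with no marker at 0 reads in either group. Of 10 neutrophil markers listed, 7 had a value, and Ly6g, Camp and Ngp had none. Neutrophil markers were called higher in 6 of 7, at 71.7 to 468 CPM against 7.29 to 11.7 CPM. In KO saline replicates 1 to 4 Mmp8 held 2, 3, 1 and 0 reads, Retnlg 4, 1, 3 and 0, and Cxcr2 5, 0, 4 and 0. These genes lay near the floor of 3 reads there, so their fold changes are uncertain. They may have been listed only because of their level under isoproterenol. T, B and NK cell markers were called higher in 0 of 14 and lower in 3, at 6.02 to 47.7 CPM against 15.6 to 41.0 CPM. Markers of plasmacytoid dendritic cells, potent makers of type I interferon, were called higher in 1 of 5, and those of other dendritic cells higher in 2 of 9 and lower in 1. Adipocyte markers were called lower in 5 of 10 and higher in 1 (median -1.01), and brown adipocyte markers likewise lower in 5 of 10 and higher in 1 (median -0.71). The summed adipocyte level ran from 6394 to 50747.5 CPM in KO isoproterenol, on both sides of the 27869 to 29793 CPM in KO saline. Endothelial markers were called higher in 5 of 10 (median 0.37) and fibroblast markers in 2 of 8 (median 0.47), none of either lower. The order of the KO isoproterenol libraries by macrophage score (mean centred log2 CPM of the 14 markers) was 3.02, 1.43, 2.62 and 0.62 in replicates 1 to 4. By brown adipocyte score it was -3.04, -0.44, 0.14 and 0.87, against 0.01 to 0.52 in KO saline, and by effector score 3.20, 1.79, 1.66 and 1.33. The part of these cells in the members' values was not tested.

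**Figure D3:**
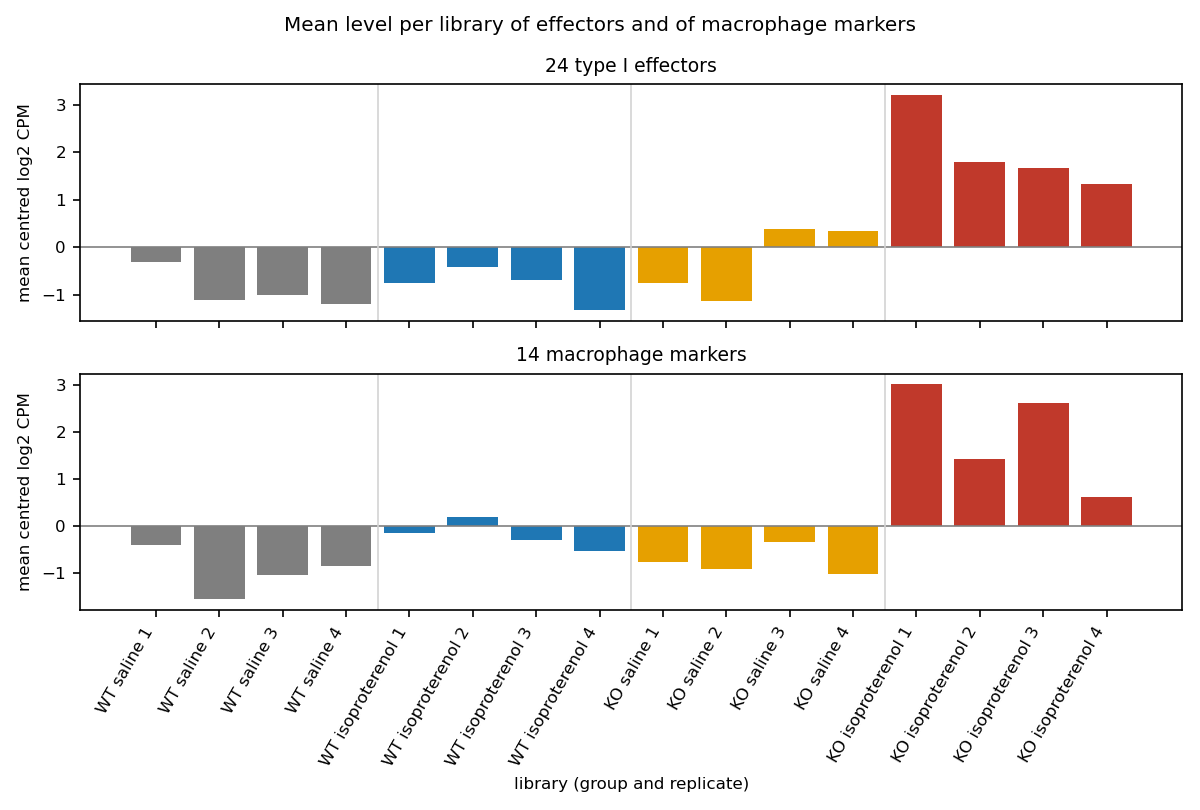
Bars give, for each of the 16 libraries, the mean of log2 CPM once the mean of each gene was subtracted, for 24 type I effectors (top) and 14 macrophage markers (bottom). The 4 KO isoproterenol libraries are highest in both, and KO saline replicates 3 and 4 stand above replicates 1 and 2 for effectors (0.37 and 0.34), while for macrophage markers replicate 3 is the highest (-0.35) and replicate 4 the lowest (-1.03) of that group.

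In WT brown fat the same infusion gave no called member. Against WT saline, 0 of 49 were called in either direction by limma, where 7.60% of all genes were called higher and 8.98% lower, and 5 had an unadjusted p under 0.05 (30.4% of all genes). In 2 members all treated libraries lay above all saline libraries and in 5 below, against 16.3% and 16.6% of all genes. The median difference of the members was -0.12. The fit of the WT libraries alone called 4 members higher and 5 lower, where it called 16.3% of all genes higher and 15.8% lower. Dhx58 read 7.72, 6.18, 5.44 and 6.85 CPM in WT saline and 13.5, 10.6, 11.9 and 12.6 CPM in WT isoproterenol. These groups did not overlap, yet over all 16 libraries the log2 difference of 0.90 (SE 0.37) had a limma adjusted p of 0.113. Ddx58 went the other way, at 52.1, 52.1, 46.8 and 52.3 CPM in WT saline and 34.5, 37.4, 33.6 and 29.7 CPM in WT isoproterenol (-0.59, SE 0.26, limma adjusted p = 0.130). Both were called in the fit of the WT libraries alone. Ifngr1 read 179, 160, 134 and 145 CPM in WT saline and 119, 154, 106 and 101 CPM in WT isoproterenol (-0.38, SE 0.17, limma adjusted p = 0.151). WT isoproterenol replicate 4 was the lowest of its group in 42 of 49 members, against 25.3% of all genes.

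**Figure D4:**
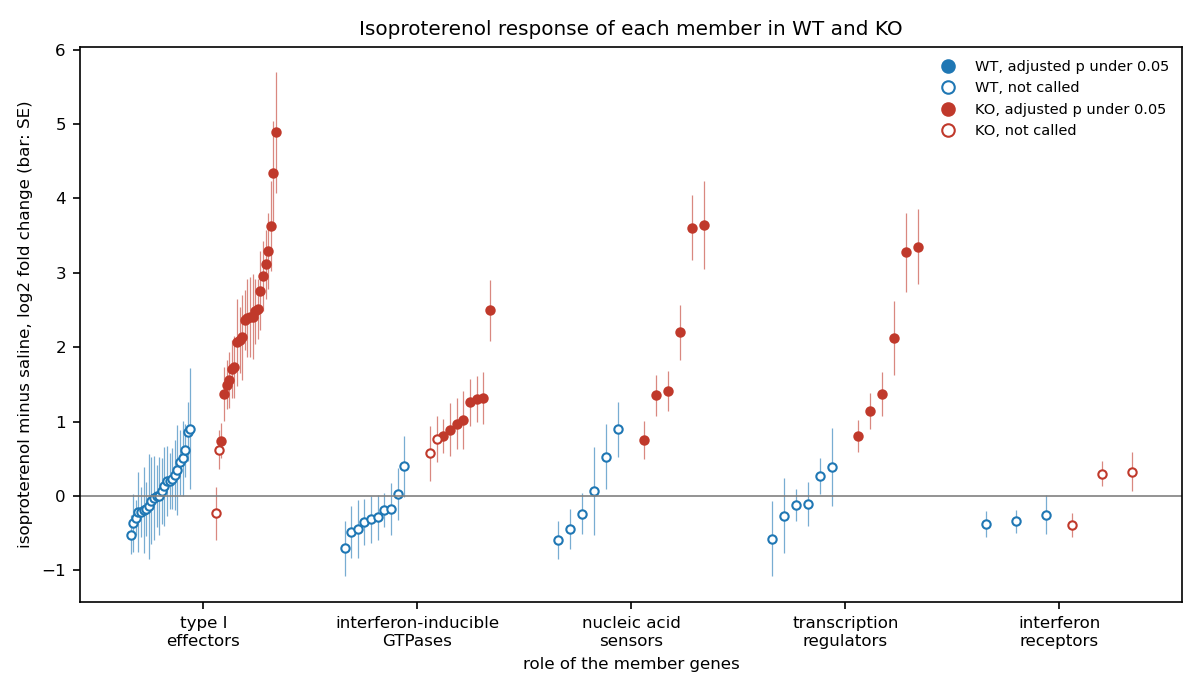
Log2 fold change of isoproterenol minus saline with its SE for each member, by role, in WT (blue) and KO (red); filled points had an adjusted p under 0.05. No WT point is filled, and in KO all points outside the receptor chains are filled except Ifi35, Ifi27l2a, Igtp and Irgm2.

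The KO response exceeded the WT response for most members. The interaction, KO response minus WT response, was called higher in 36 of 49 members and lower in 0, where 10.9% of all genes were called higher and 13.8% lower, and its median was 1.73. By role it was called in 21 of 24 effectors, 5 of 10 GTPases, 5 of 6 sensors, 5 of 6 regulators and 0 of 3 receptor chains. The largest were Mx1 at 4.48 (SE 0.99), Oas3 at 3.98 (SE 1.15), Irf7 at 3.92 (SE 0.71), Zbp1 at 3.57 (SE 0.84) and Oasl1 at 3.28 (SE 0.85), with limma adjusted p from 0.00261 (Irf7) to 0.0217 (Oas3). With precision weights, Mx1 (limma adjusted p = 0.0555) and Oas3 (0.126) lost the call. Without KO isoproterenol replicate 1 the interaction was 3.79 for Mx1 and 3.34 for Oas3, which was 3.34 without WT saline replicate 1 as well, and Oasl1 was 2.69 without KO saline replicate 2. The count fell to 22 without WT isoproterenol replicate 4, to 23 without WT saline replicate 1 and to 24 without KO saline replicate 1 or 2, and the direction of the median held at 1.48 to 2.0 over the 16 libraries left out in turn.

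Under isoproterenol the genotypes differed directly. KO libraries were called higher than WT libraries in 46 of 49 members and lower in 0, where 21.6% of all genes were called higher and 23.1% lower, with a median of 2.05 and 45 members without overlap (17.2% of all genes). This comparison shares its KO isoproterenol libraries with the one against KO saline. All 10 GTPases, all 6 sensors, all 6 regulators and 23 of 24 effectors were called, and of the receptor chains Ifngr1 alone (0.62). Oas3 differed by 5.90 (SE 0.81), Mx1 by 5.34 (SE 0.70), Zbp1 by 4.70 (SE 0.59), Irf7 by 4.55 (SE 0.50) and Oasl1 by 4.27 (SE 0.60). Without KO isoproterenol replicate 1, Mx1 differed by 4.65 and Oas3 by 5.27. Zbp1 read 3.72, 2.89, 2.59 and 1.23 CPM in WT isoproterenol, the lowest KO library thus being 28.8 against a WT highest of 3.72. Ifi27l2a, at 498, 685, 598 and 506 CPM in WT isoproterenol, was not called (-0.87, limma adjusted p = 0.0573), and without KO isoproterenol replicate 3 it was called lower. Ifnar1 (0.33) and Ifnar2 (-0.10) were the other two not called.

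Under saline the genotypes did not differ by test. By limma 0 of 49 members were called, where 0.0717% of all genes were called higher and 0.0261% lower, 3 had an unadjusted p under 0.05 (6.91% of all genes), and the median was 0.28 with 41 members above 0. The smallest p belonged to Usp18, which read 7.98, 5.01, 4.79 and 5.27 CPM in WT saline and 10.2, 7.62, 26.9 and 26.0 CPM in KO saline (1.44, SE 0.42, limma adjusted p = 0.397). Ifit1 (1.25, SE 0.58, limma adjusted p = 0.708) and Oas3 (1.92, SE 0.81, limma adjusted p = 0.655) followed. Oas3 read 1.72, 0.135, 0.884 and 0.208 CPM in WT saline, where replicates 2 and 4 were under the floor of 3 reads, and its difference was 2.56 without WT saline replicate 1. The groups overlapped in all 49 members, whereas 3.75% of all genes lay wholly above and 3.44% wholly below.

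The 4 KO saline libraries were spread more widely in the members than in most genes. The median standard deviation (SD) of log2 CPM over these libraries was 0.64 for the members and 0.25 for all genes, against 0.33 and 0.20 in WT saline. In 23 of 49 members (46.9%) the SD exceeded 0.70, the 90th percentile of all genes, which 10% of genes exceed. They were 17 of 24 effectors (median SD 0.82), 4 of 10 GTPases (0.62), 1 of 6 sensors (0.39), 1 of 6 regulators (0.46) and 0 of 3 receptor chains (0.19). In WT saline 7 of 49 members lay above the same percentile of that group, in WT isoproterenol 6 and in KO isoproterenol 5.

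The widest members in KO saline were effectors. Oasl1, with the values given above, had an SD of 1.47 and a highest library 11.4 times the lowest. Ifit1 read 12, 5.79, 54.0 and 30.7 CPM (SD 1.43), Ifit3b 2.80, 2.62, 15.5 and 13.2 CPM (SD 1.39), Ifi44 2.87, 2.96, 9.90 and 19.7 CPM (SD 1.37) and Ifit3 12.6, 9.70, 49.4 and 54.5 CPM (SD 1.30). Replicates 3 and 4 were the high ones each time. Outside the effectors, Irf7 (SD 1.21), Zbp1 (SD 1.20) and Iigp1 (SD 0.93) were the widest of their classes.

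The same pair of libraries was high throughout the list. KO saline replicates 3 and 4 both lay above replicates 1 and 2 in 44 of 49 members, and both below in 2, a split noticed in the data, where 16.6% and 15.7% of all genes were so ordered. This held for 22 of 24 effectors, 10 of 10 GTPases, 6 of 6 sensors, 5 of 6 regulators and 1 of 3 receptor chains. The mean score of the 49 members was -0.64, -0.92, 0.28 and 0.27 in KO saline replicates 1 to 4, against -0.89 to -0.26 in WT saline and 0.99 to 2.67 in KO isoproterenol. WT saline replicate 1, at -0.26, was the highest WT saline library. It held the highest value of its group in 35 of 49 members, against 30.3% of all genes.

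The mean scores of T, B and NK cell markers and of dendritic cell markers shared that order. Those of macrophages, neutrophils and muscle did not. Macrophage scores of KO saline replicates 1 to 4 were -0.76, -0.91, -0.35 and -1.03, so that replicate 3 was the highest and replicate 4 the lowest, and neutrophil scores were -1.27, -1.83, -1.64 and -2.47. T, B and NK cell scores were 0.11, 0.20, 1.54 and 0.51, higher in replicates 3 and 4, and dendritic cell scores were -0.13, -0.17, 0.60 and 0.12. These are means, and single markers of both lists differed in order. The dendritic cell marker Clec10a read 14.1, 15.7, 13.1 and 10.6 CPM, and Zbtb46 70.8, 44.7, 51.5 and 46.6 CPM. The B cell marker Cd79a read 2.44, 3.29, 1.71 and 1.32 CPM. Skeletal muscle scores were -3.12, 2.04, 1.99 and -4.31, high in replicates 2 and 3. The part of lymphocytes and dendritic cells in the spread was not tested. Depth did not follow the split either, at 14381797, 12629357, 13751611 and 9004515 reads.

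**Figure D5:**
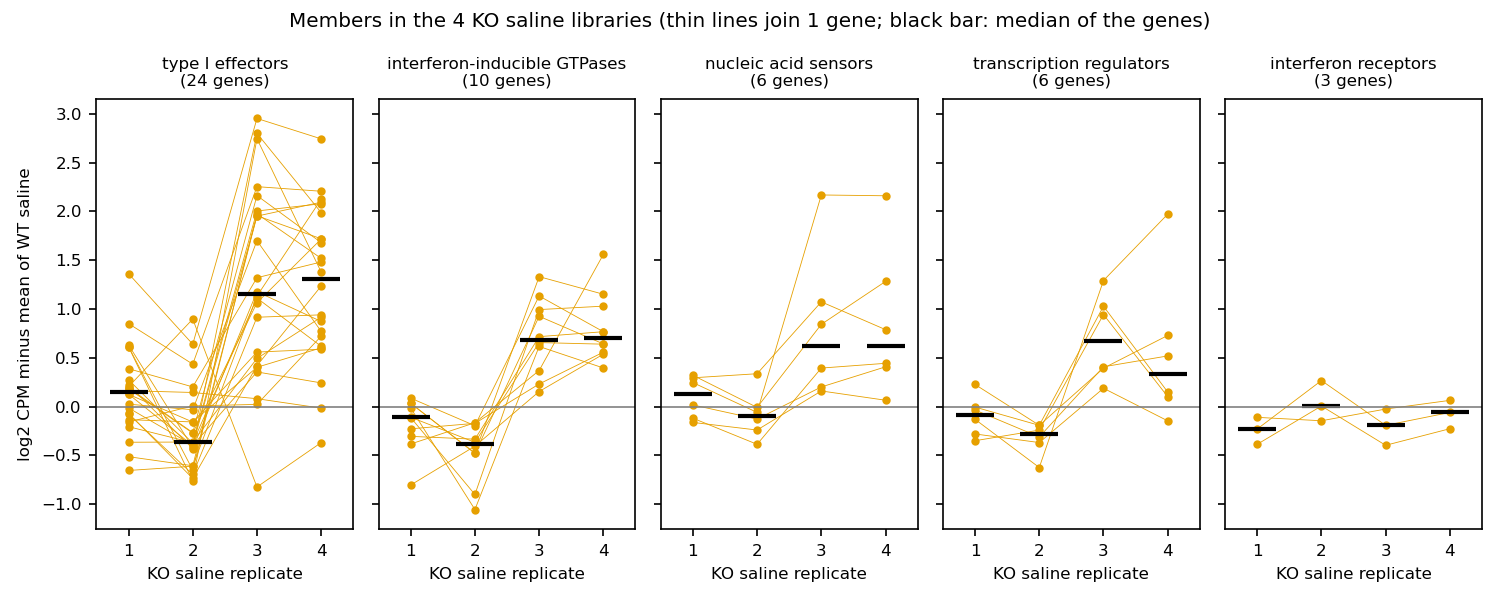
Log2 CPM of each member in the 4 KO saline libraries minus its mean in WT saline, in 5 panels by role; thin lines join the values of 1 gene and black bars are medians over the genes. Replicates 3 and 4 lie above replicates 1 and 2 in each panel but that of the 3 receptor chains, with the widest gap among the effectors.

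Further genes of the pathway were taken from lists outside the 49. The interferon genes themselves, 11 listed, are not analysed here. Of 98 other measured genes, 76 were called higher and 3 lower in KO isoproterenol against KO saline (median 1.19), 4 and 1 in WT (median 0.08), and 0 and 0 between genotypes under saline. The shares of all genes were 23.8% higher and 24.8% lower in KO, 7.60% and 8.98% in WT, and 0.0717% and 0.0261% under saline. The WT counts thus lay below the shares of all genes. In receptor and JAK-STAT signalling 11 of 16 were called higher and 0 lower in KO, among them the feedback inhibitors Socs1 (1.69) and Socs3 (2.65) and the phosphatase Ptpn6 (3.14, or 2.49 without KO isoproterenol replicate 1 and 3.82 without replicate 4).

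Of 15 genes that lead to interferon production 12 were called higher and 1 lower in KO. The endosomal receptor Tlr7 rose by 3.97 (SE 0.54), while Mavs, the mitochondrial adaptor of the RNA helicases Ddx58 and Ifih1, fell by 1.47, from 161, 203, 148 and 160 CPM in KO saline to 45.5, 51.3, 67.1 and 83.5 CPM. Of 67 further interferon-induced genes 53 were called higher and 2 lower, the latter Cd274 (-1.33) and Isoc1 (-1.61). The largest rises were Ifitm1 (4.03), Ifi209 (3.95), the chemokine Cxcl10 (3.91), Oas1g (3.89) and Ifi211 (3.74). Without KO isoproterenol replicate 1, Ifi209 rose by 3.35 and Oas1g by 3.30, and Cxcl10 rose by 3.25 without replicate 2 and by 4.79 without replicate 3. Cxcl10 read 128, 381, 15.4 and 114 CPM in KO isoproterenol and 3.9, 2.9, 14.2 and 10.6 CPM in KO saline, where replicates 3 and 4 were again the high ones. In WT the called rises were Lgals9 (1.15), Ly6a (0.83), Irf3 (0.58) and Wars (0.57), and the called fall was Isoc1 (-0.54).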

How the data were processed

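The authors deposited 1 table per library of log2 CPM for 15350 genes. STAR, limma and the build mm39 are named in the submitters' processing notes, without versions or counting settings. Each value, for 100% of them, gave back a whole number of reads (within 1e-06 of a whole number, prior count 0.5), and the authors' scaling was kept. Symbols came from GENCODE M21, used for names and transcript lengths only. The values were fitted with limma 3.58.1 (R 4.3.3), with 4 group means over 16 libraries, 12 residual degrees of freedom, a mean-variance trend, robust moderation and Benjamini-Hochberg adjustment over all genes. The script was tested on simulated data. The members, lists and the rule for named genes (the 3 called members with the largest change per role and those not called, the 5 largest in the other comparisons, the 5 widest in KO saline) were chosen with earlier results of these data known. Other named genes were chosen from the given list. A further gene that the rule names is not reported here. Genes most alike were not computed, since the libraries fall into separate clusters. Groups and replicate numbers came from the labels. Titles decided the numbers of 3 KO saline libraries whose column headers differ, and the treatment characteristic decided the saline group, whose treatment text describes isoproterenol. Deviations from the group means of same-numbered saline and isoproterenol libraries correlated at 0.21 to 0.54 in WT and 0.03 to 0.24 in KO. The own number correlated best for WT replicates 2, 3 and 4 and for KO replicates 2 and 3. These values do not settle whether same-numbered libraries were paired, and the main fit held no replicate block. Alternatives were other scalings, a pseudocount of 1, a filter, voom weights, a fit of 2 groups, a replicate block, a muscle covariate and each library left out.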

Additional observations from a re-analysis of the deposited data

Results flagged for a closer look

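Of 196 sets of 4 values (each member in each group), 14 held a library whose gap to the nearest other exceeded Dixon's critical share of the range, where chance flags about 1 in 20. KO isoproterenol replicate 1 lay far above the others in 4 members (Cmpk2, Irgm1, Irgm2 and Iigp1), WT isoproterenol replicate 4 far below in 5 (Ifit2, Ifit3b, Oasl2, Irgm2 and Iigp1), WT saline replicate 1 far above in 4 (Ifit3b, Oas2, Trim30a and Sting1) and WT saline replicate 3 far below in 1 (Ddx58). No member had such a library in KO saline. By order alone, KO isoproterenol replicate 1 was the highest of its group in 45 of 49 members, against 37.4% of all genes. The isoproterenol response differed between genotypes in 36 members by the interaction term, each higher in KO.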

How the results depend on the processing

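Of the counts of members called and the spread in KO saline, 182 values under the alternatives stayed within 1.5 times the main value (the spread within 1 SD). With 2 groups only, 4 members were called higher and 5 lower in WT. With 1 library left out, members called in the interaction ranged from 22 to 43, members called lower in KO from 0 to 1 (Ifnar2) and members called lower in KO against WT under isoproterenol from 0 to 1 (Ifi27l2a). The difference in KO changed sign in 3 such fits, ranging from -0.51 to 0.090 for Ifi27l2a and from -0.022 to 0.59 for Ifnar1. Scaling by library totals put the median of all genes at 0.18 for the KO response and at 0.34 for the interaction, and called 45 and 44 members higher. With the replicate block within genotype, 0 members were called in WT, 40 higher in KO and 26 in the interaction, and the block changed no call of a WT member. Among named genes 601 values kept their direction and side of the threshold, 16 crossed to called and 2 lost the call. The cause of these shifts was not tested. Depth limits Oas3 in WT saline.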
